A study of Mus musculus with 31 samples.

Results

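The alkylation and mismatch repair genes Mgmt, Alkbh2, Alkbh3, Mpg, Msh6, Msh3, Pms2 and Exo1 were followed in mouse thymus and in thymic tumors that arose after ENU treatment (N-ethyl-N-nitrosourea adds ethyl groups to DNA bases). The 8 genes, of 18193 with a probe set of their own, were listed by name for their part in the repair of such damage. Earlier results of these data were known when they were chosen. A count of members beside the share of all genes is therefore a description and not a test of the group. Together they had 18 probe sets that name 1 gene: 1 each for Mgmt, Alkbh2 and Msh6, 2 for Alkbh3, 3 each for Mpg, Pms2 and Exo1, and 4 for Msh3. All 8 genes and all 18 probe sets passed the filter on low levels, and 14016 genes were tested in all.

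The study measured RNA on Affymetrix Mouse Genome 430 2.0 arrays in C57BL/6 mice of 3 genotypes of NDR1, a protein kinase encoded by Stk38. The genotypes were NDR1+/+ (WT), NDR1+/- (HT) and NDR1-/- (KO). Untreated normal thymus was measured on 12 arrays, 2 female and 2 male for each genotype. Tumors of mice given ENU at 100 mg/kg were measured on 19 arrays: 5 female WT, 6 female and 1 male HT, and 6 female and 1 male KO, taken when a tumor developed or at 9 months. Titles speak of thymocytes and tumor cells, tissue labels of thymus, and ages and the design of the mutant allele are not given in the sources used here. All tumors had been exposed to ENU and no thymus had, so exposure, the time since it and the tumor state cannot be told apart. The labels do not say that arrays came from separate animals, so p-values below measure only the spread between these samples, and the number of arrays limits the precision.

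Cells remove alkyl groups from DNA along several routes. MGMT transfers an alkyl group from the O6 position of guanine to itself and is used up in doing so. ALKBH2 and ALKBH3 oxidize alkyl groups off other base positions, and MPG, a DNA glycosylase, cuts out alkylated purines as the first step of base excision repair. Mismatch repair acts on the mispairs that unrepaired O6-alkylguanine leaves after replication: MSH6 and MSH3 are alternative partners of the mismatch sensor, PMS2 is part of the complex that nicks the strand, and EXO1 is the exonuclease that resects it. Loss of mismatch repair is a known cause of thymic lymphoma in mice, and several genes of replication-linked repair are controlled by E2F factors, which act at the start of S phase.

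Promoter sequence is shown for Msh6 and Msh3, the mismatch sensor partners whose RNA moved in opposite directions in tumors. It was taken from RefSeq on GRCm38.p6, whose table of promoters (250 bases before to 50 after each start) had 8 entries for 7 of the 8 genes and none for Exo1. The E2F-type forms TTTCCCGC, TTTGGCGC, TTTCGCGC and TTTGCCGC were searched on both strands, and 744 of 32851 promoters (2.26%) held at least 1 of them. Of the 8 entries, 2 held one, those of Msh6 and Msh3. In Msh6 the form lay inside the transcript, starting at base 16, and in Msh3 overlapping forms on opposite strands began 202 bases before the start. The printed stretches run from base -60 to 30 at chr17:87974990-87975079 (plus strand) for Msh6, and from base -230 to -171 at chr13:92355174-92355233 (minus strand) for Msh3. Capitals mark the matches, which are a description of letters and not of binding.
Msh6: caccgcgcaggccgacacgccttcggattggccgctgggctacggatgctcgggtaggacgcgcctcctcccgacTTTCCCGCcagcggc
Msh3: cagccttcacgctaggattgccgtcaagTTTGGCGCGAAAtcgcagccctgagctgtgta

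Levels are given as log2(intensity + 1) of normalized intensities, on which a difference of 1 is a doubling, and each gene is read from its probe set of highest mean. Stk38 was 11.86 ± 0.148 in WT, 11.44 ± 0.115 in HT and 10.92 ± 0.329 in KO thymus (SD, n = 4 each; KO against WT adjusted p = 0.00112, limma). In tumors it was 12.15 ± 0.724 (n = 5), 11.77 ± 0.755 (n = 7) and 11.09 ± 1.89 (n = 7), and no genotype difference passed. The mean of 5 T cell markers was 13.48 to 13.68 in thymi and 11.50 to 13.17 in tumors, and that of 8 double-positive thymocyte markers 12.66 to 12.90 and 6.55 to 12.11. The mean of B cell and plasma cell markers was 6.65 to 7.99 in thymi and 5.18 to 9.90 in 15 tumors, but 11.05 to 12.69 in HT tumors 01 and 03 and KO tumors 04 and 06. The 3'/5' ratio, a log2 reading of RNA quality from control probe sets at both ends of the actin and Gapdh transcripts, was 0.336 ± 0.0678 in thymi and 1.33 ± 1.17 in tumors, highest in HT tumor 07 (4.87).

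In tumors against thymus, averaged over the genotypes and adjusted for sex, Mgmt, Msh3, Alkbh2 and Mpg rose and Msh6 fell. That fit held 1 sex term for thymi and tumors alike, and only 2 of 19 tumors were male. Whether sex acts alike in both tissues was not tested. The members called were 5 of 8 at an adjusted p under 0.05 in limma, against 24.2% of all genes tested (11.6% higher and 12.6% lower). Pms2, Alkbh3 and Exo1 did not pass. The count was 1 of 8 with the 3'/5' ratio in the fit, 1 of 8 in female arrays alone and 2 of 8 without HT tumor 04. It was 3 of 8 without WT thymus F_01, HT thymus F_01, HT thymus F_02 or KO thymus F_02. The share of all genes called in those fits is not given here, and the 24.2% does not stand for it. Whether the drop was particular to the members was not tested. The median difference of the 8 genes was 0.35, against 0.05 over all genes. In bulk RNA, fewer cells of a type and less RNA per cell cannot be told apart.

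Markers of other cell types moved in the same comparison. Of 8 fibroblast markers 5 rose and 0 fell (mean over the list 3.97 to 5.53 in thymi, 4.51 to 8.89 in tumors), and of 8 thymic epithelium markers 0 rose and 5 fell (5.28 to 8.30 and 4.26 to 5.38). Of 8 macrophage markers 2 rose and 1 fell (5.56 to 7.89 and 6.56 to 9.59). Their part in the levels of the 8 repair genes was not tested.

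**Figure D1:**
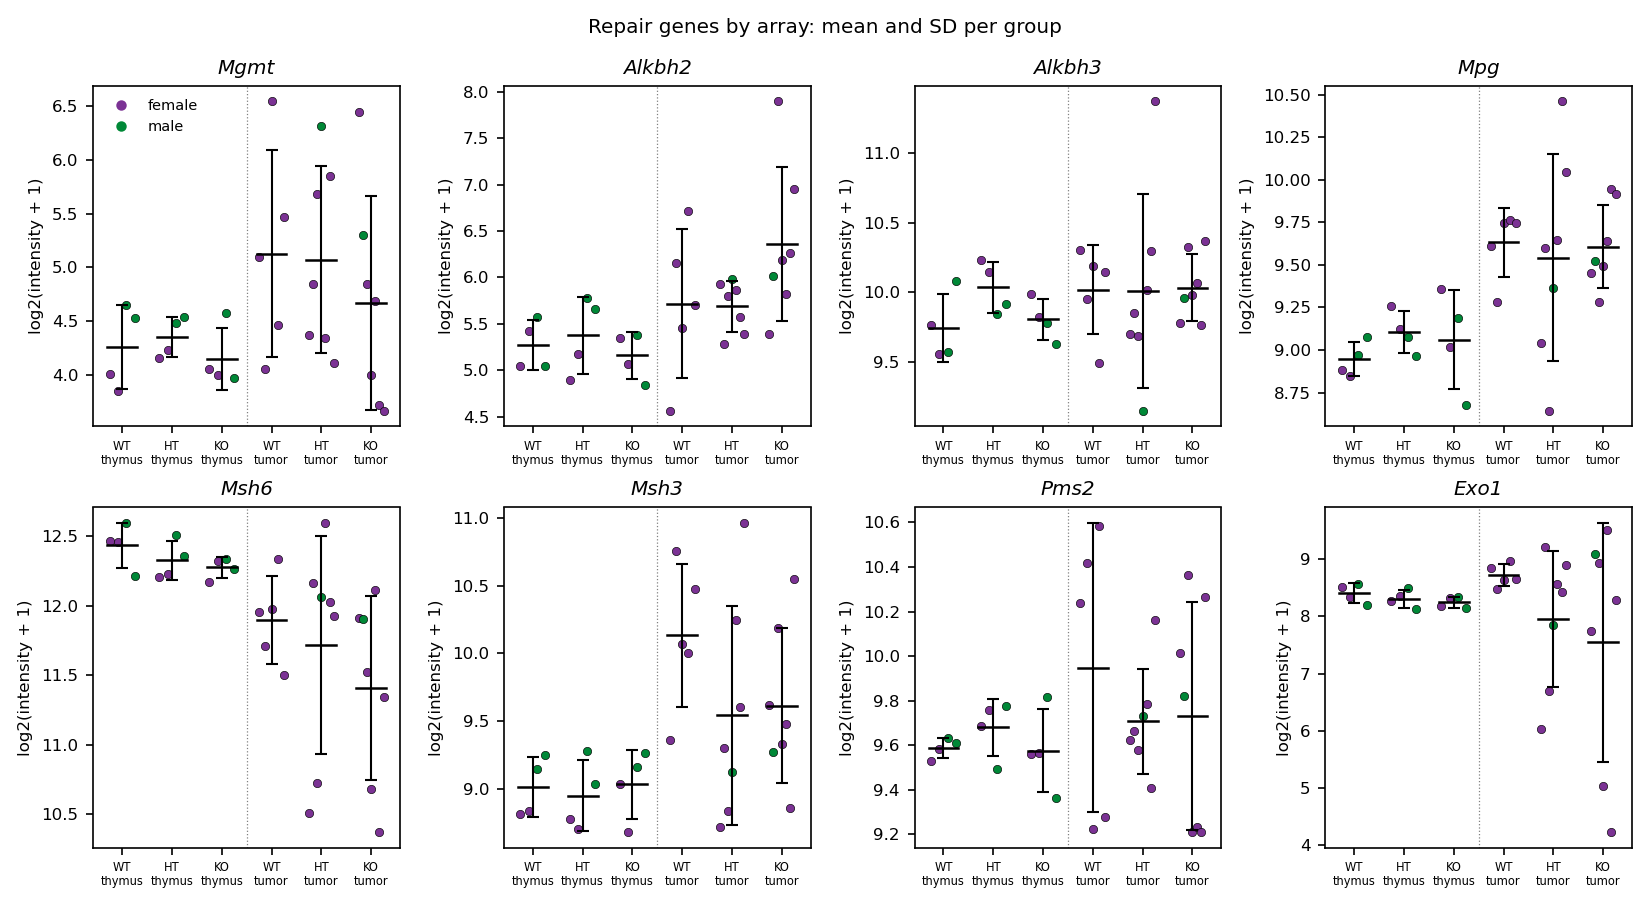
Levels of the 8 genes, as log2(intensity + 1), in every array of the 6 groups; points are arrays (purple female, green male), bars the group mean and SD. Thymus values lie close together, and tumor values spread widely, most of all for Exo1, from 4.23 to 9.52.

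Mgmt, which repairs O6-alkylguanine directly, was low in thymus. Its levels were 4.01, 3.85, 4.65 and 4.53 in WT thymus, 4.16, 4.24, 4.49 and 4.54 in HT thymus, and 4.06, 4.0, 4.58 and 3.97 in KO thymus, females first. As intensities the 12 thymi lay between 13.5 and 24.1, around the median of 20.0 that every array had over all its probe sets. Tumor levels were 5.09, 4.06, 6.54, 4.47 and 5.47 in WT, from 4.11 to 6.31 in HT (median 4.84, n = 7) and from 3.67 to 6.45 in KO (median 4.68, n = 7). The highest thymus was 4.65, and 11 of 19 tumors were above it, while 2 KO tumors lay below every thymus, so the groups overlapped. The sex-adjusted rise was 0.97 (SE 0.296, adjusted p = 0.0188). Whether thymus Mgmt was above background was not tested, so no fold is given. It was 0.70 without the sex term (adjusted p = 0.0506), 0.80 in female arrays alone (adjusted p = 0.184) and 0.85 without HT tumor 04 (adjusted p = 0.0519). With the 3'/5' ratio in the fit it was 1.33 (adjusted p = 0.000849).

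Alkbh2 acts on double-stranded DNA. Its level was 5.27 ± 0.305 in the 12 thymi, from 4.84 to 5.78. Tumors read 4.56, 6.16, 5.46, 6.71 and 5.70 in WT, from 5.28 to 5.99 in HT (median 5.80) and 5.39, 6.01, 7.90, 6.19, 5.82, 6.27 and 6.95 in KO. Above the highest thymus were 6 of 7 KO tumors, against 4 of 7 HT and 2 of 5 WT tumors, and WT tumor 01 was below the lowest. The rise was 0.71 (SE 0.235, adjusted p = 0.0294). It missed the threshold in 7 of 42 alternatives, among them the 3'/5' ratio as a covariate (0.56, adjusted p = 0.126) and female arrays alone (0.77, adjusted p = 0.105). It also missed it without WT thymus F_01 (adjusted p = 0.0633), HT thymus F_01 (0.0800), HT thymus F_02 (0.0601), KO thymus F_02 (0.0547) or HT tumor 04 (0.0573).

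Alkbh3, which prefers single-stranded DNA and RNA, was at 9.86 ± 0.221 in thymi and 10.02 ± 0.452 in tumors. It lay within the thymus range in 12 of 19 tumors, above it in 5 and below it in 2. The difference of 0.05 (SE 0.163, 95% interval -0.29 to 0.38) did not pass. HT tumor 07 read 11.37 and HT tumor 04 9.15, the extremes of the whole set.

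Mpg was at 9.04 ± 0.187 in thymi, from 8.68 to 9.36. Tumors read 9.61, 9.28, 9.75, 9.77 and 9.75 in WT, from 8.64 to 10.46 in HT (median 9.60) and from 9.28 to 9.95 in KO (median 9.53). Above every thymus were 15 of 19 tumors, and HT tumor 03, at 8.64, was the one below. The rise was 0.51 (SE 0.149, 1.43-fold, adjusted p = 0.0137), and leaving out any 1 array kept the adjusted p at or under 0.0361. It was 0.43 with the 3'/5' ratio (adjusted p = 0.0583), 0.53 in female arrays (adjusted p = 0.0899) and 0.35 as the mean of the gene's probe sets (adjusted p = 0.0724).

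Msh6, the sensor partner for single-base mispairs, was the member that fell. Thymus levels were 12.47, 12.46, 12.59 and 12.21 in WT, 12.21, 12.23, 12.51 and 12.36 in HT, and 12.17, 12.32, 12.34 and 12.27 in KO. Tumors read 11.95, 11.71, 11.98, 12.34 and 11.50 in WT, 10.51, 12.16, 10.73, 12.06, 12.59, 12.03 and 11.93 in HT, and 11.91, 11.90, 11.53, 10.68, 12.11, 10.37 and 11.34 in KO. Below the lowest thymus were 17 of 19 tumors and above the highest none, WT tumor 04 and HT tumor 05 being the exceptions. The difference was -0.58 (SE 0.214, 0.669-fold, adjusted p = 0.0486).

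That Msh6 call was close to the threshold and was lost in 22 of 42 alternatives, with the direction kept in all. The 3'/5' ratio as a covariate gave -0.59 (adjusted p = 0.0854) and female arrays alone -0.68 (adjusted p = 0.126). Leaving out 1 array lost it for 18 of the 31, with adjusted p over all 31 from 0.0285 to 0.0970. These were WT thymi F_01, F_02 and M_01, all HT and KO thymi, WT tumors 01, 02, 03 and 05, HT tumor 04, and KO tumors 04 and 07. Without the 4 tumors of highest B cell marker mean, which also had the 4 lowest Msh6 levels, the difference was -0.39 (adjusted p = 0.0096).

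Msh3, the sensor partner for insertion and deletion loops, moved the other way. Thymus levels were 8.81, 8.83, 9.15 and 9.25 in WT, 8.77, 8.70, 9.28 and 9.04 in HT, and 9.04, 8.68, 9.16 and 9.26 in KO. Tumors read 9.36, 10.75, 10.07, 10.003 and 10.48 in WT, 8.72, 9.30, 8.83, 9.13, 10.24, 9.61 and 10.96 in HT, and 9.62, 9.27, 10.19, 9.33, 9.48, 8.86 and 10.55 in KO. All 5 WT tumors were above the highest thymus, as were 4 of 7 HT and 5 of 7 KO tumors, and no tumor was below the lowest.

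The rise of Msh3 was 0.80 (SE 0.228, 1.74-fold, adjusted p = 0.0121). It kept its call without any 1 array (adjusted p at most 0.0358) and in female arrays alone (1.0, adjusted p = 0.0344). The 3'/5' ratio as a covariate brought it to 0.47 (adjusted p = 0.0854), the one alternative of 42 that lost it. In the 15 tumors other than those with high B cell markers, Msh3 was higher where the ratio was higher (Pearson r = 0.74, Spearman rho = 0.69, permutation test adjusted p = 0.0109 and 0.0306 over 16 relations). The Pearson r was 0.57 without the 2 tumors of most extreme ratio. By genotype it was 0.93 in HT, 0.94 in KO and 0.18 in WT tumors (n = 5 each). The part of RNA quality in the Msh3 result was not tested beyond these values.

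Pms2 was at 9.61 ± 0.130 in thymi and 9.78 ± 0.458 in tumors. Of the 19 tumors, 8 were above every thymus and 5 below every thymus. WT tumors split within 1 group, at 10.24, 10.42 and 10.59 in tumors 01, 02 and 04 and at 9.23 and 9.28 in tumors 03 and 05. The difference from thymus, 0.19 (SE 0.164, 95% interval -0.15 to 0.53), did not pass.

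Exo1 was tight in thymi, at 8.32 ± 0.148, and spread most among tumors. Tumors read 8.84, 8.49, 8.63, 8.98 and 8.65 in WT, 6.03, 9.22, 6.70, 7.85, 8.57, 8.43 and 8.90 in HT, and 7.74, 9.09, 8.94, 5.03, 9.52, 4.23 and 8.28 in KO. Above every thymus were 9 tumors and below every thymus 6, all of the latter HT or KO. The difference of -0.13 (SE 0.478, 95% interval -1.11 to 0.85) did not pass. Its SD was 9.89 times as large in tumors as in thymi, where the median ratio over all genes was 3.32 and the other members ran from 2.05 (Alkbh3) to 4.74 (Msh6). Without the 4 tumors of highest B cell marker mean, left out here after their levels were seen, the ratio was 3.24 for Exo1 and 2.38 for Msh6, beside a median of 2.94 over all genes.

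**Figure D2:**
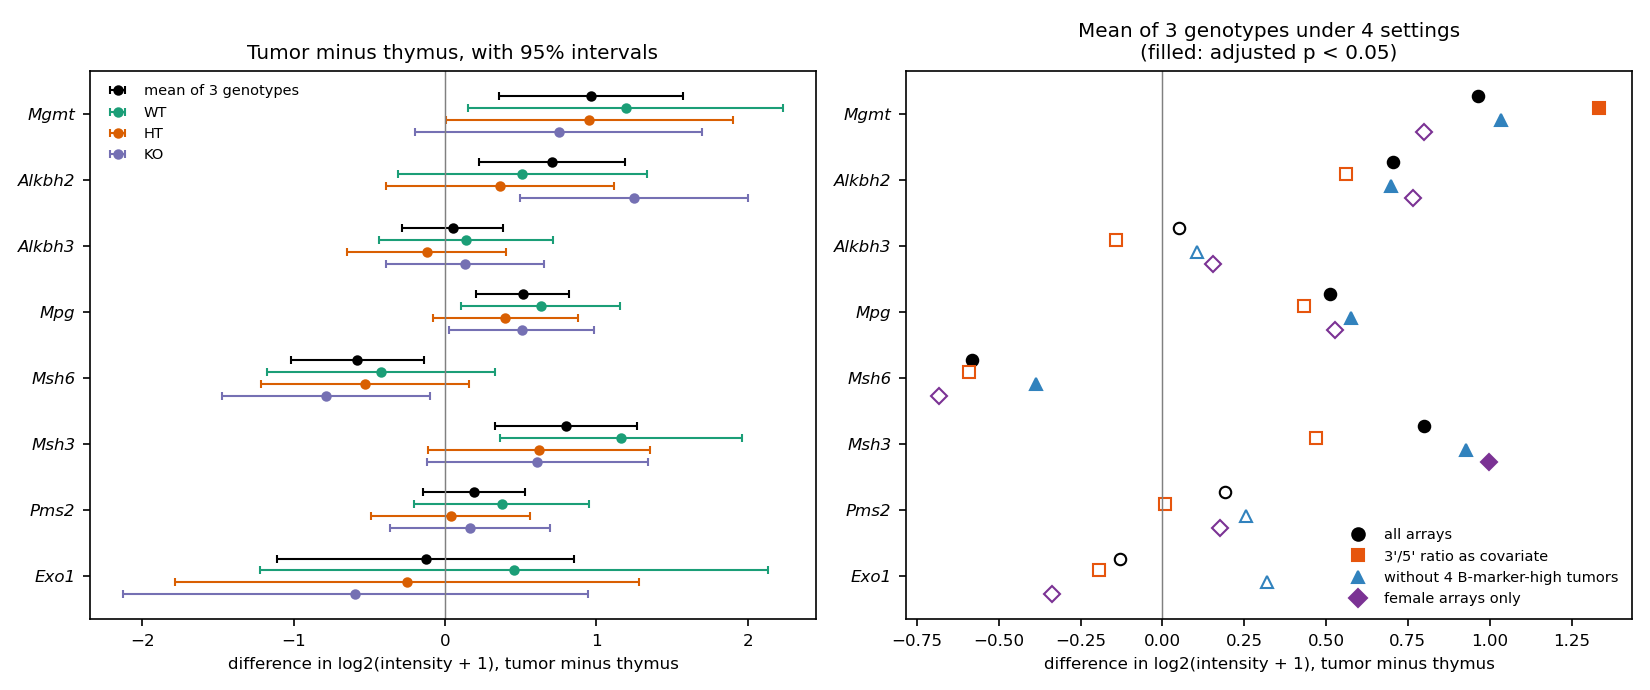
Tumor minus thymus difference in log2(intensity + 1): at left the fitted difference over the genotypes and within each with its 95% interval, at right the mean of the genotypes under 4 settings, filled where the adjusted p was under 0.05. Mgmt, Alkbh2, Mpg and Msh3 lie above 0 and Msh6 below under each setting, while 1 member is filled with the 3'/5' ratio in the fit and 1 in female arrays.

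Within single genotypes few members passed. Within WT the count was 0 of 8, where 6.56% of all genes were called (limma), and 3 members had an unadjusted p under 0.05. Msh3 was the nearest, at 1.16 (SE 0.390, adjusted p = 0.0712), and it passed without WT tumor 01 (1.36, adjusted p = 0.0372) or HT tumor 07 (1.19, adjusted p = 0.0268). Within HT the count was 0 of 8 (3.5% of all genes), with 1 member at an unadjusted p under 0.05.

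Within KO 1 of 8 was called, against 4.76% of all genes. It was Alkbh2, at 1.25 (SE 0.367, adjusted p = 0.0464), and the call was lost in 26 of 42 alternatives. Of the 31 arrays, 21 lost it when left out (adjusted p over all 31 from 0.0208 to 0.155): every thymus, WT tumors 03 and 05, HT tumors 02, 03, 04 and 06, and KO tumors 03, 06 and 07. Without KO tumor 03, the highest at 7.90, the rise within KO was the lowest of these, 1.01. The fit shares 1 spread over all 31 arrays, so an array of another genotype can move the adjusted p alone. Without WT tumor 03 or 05 the rise was unchanged at 1.25 (limma adjusted p = 0.0504 and 0.0538).

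The tumor against thymus difference was also compared between genotypes. Of the 8 members 0 were called in each of the 3 contrasts, as for all genes (0%), and none had an unadjusted p under 0.05. Alkbh2 had the largest positive contrast, 0.89 for KO minus HT (95% interval -0.14 to 1.92), and Exo1 the largest negative, -1.05 for KO minus WT (95% interval -3.23 to 1.13). The Exo1 contrast was 0.18 without the 4 tumors of highest B cell marker mean, 2 of them KO, 2 HT and 0 WT.

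Between genotypes of untreated thymus no member passed. For KO against WT the count was 0 of 8 (0.186% of all genes), with differences from -0.16 (Exo1) to 0.12 (Mpg) and none at an unadjusted p under 0.05 in limma. For HT against WT it was 0 of 8 (0.0214%), and Alkbh3 alone had an unadjusted p under 0.05, at 0.29 (95% interval 0.01 to 0.57, adjusted p = 0.728). For KO against HT it was 0 of 8 (0.0571%), from -0.23 (Alkbh3) to 0.09 (Msh3). The widest interval for KO against WT was that of Alkbh2, -0.54 to 0.31, and the narrowest that of Msh3, -0.17 to 0.22. Msh6 lies on chromosome 17, as does Stk38, but far from it (starts at bases 87975050 and 28970880). It differed by -0.16 between KO and WT (95% interval -0.37 to 0.05), which did not pass.

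Between genotypes of tumors 0 of 8 were called in each of the 3 comparisons, as were 0% of all genes (limma; 473, 390 and 154 genes at an unadjusted p under 0.05 for KO against WT, HT against WT and KO against HT, and no member). Exo1 differed most, at -1.29 for KO against WT (SE 0.841, 95% interval -3.06 to 0.48). Msh6 was -0.56 (95% interval -1.35 to 0.23) and Alkbh2 0.65 (95% interval -0.19 to 1.49) in the same comparison. Without the 4 tumors of highest B cell marker mean, none of them WT, the differences were 0.04 for Exo1, -0.14 for Msh6 and 0.70 for Alkbh2. In order of group mean, Msh3 ran from HT (9.54) and KO (9.61) to WT tumors (10.13), with SDs of 0.809, 0.575 and 0.530, so neighbours did not differ beyond their spread.

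The 4 tumors of highest B cell marker mean were also the lowest for Exo1 and for Msh6. Exo1 read 4.23 in KO tumor 06, 5.03 in KO tumor 04, 6.03 in HT tumor 01 and 6.70 in HT tumor 03, against 7.74 to 9.52 in the other 15 tumors. Msh6 read 10.37, 10.68, 10.51 and 10.73 in the same order, against 11.34 to 12.59. The mean of 20 replication and S phase genes was 8.72 to 9.50 in these 4 tumors and 10.64 to 11.57 in the others. Low levels in the 4 were not limited to these genes. The mean of mitosis genes was at most 9.55 in the 4 and at least 9.64 in the others. For base excision repair, a list that holds Mpg, these bounds were 8.61 and 8.77. For mismatch repair, a list that holds Msh3, Msh6, Pms2 and Exo1, they were 10.298 and 10.326. Means of direct reversal, nucleotide excision repair and translesion synthesis overlapped.

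None of the remaining members separated all 4 of those tumors from the others. Msh3 read 8.72 to 9.33 in the 4 and 9.13 to 10.96 in the others. HT tumors 01 and 03 and KO tumor 06 were below every other tumor for Msh3, and only KO tumor 04, at 9.33, overlapped. Mgmt read 3.72 to 5.68 in the 4 and 3.67 to 6.54 in the others. Alkbh2, at 5.80 to 6.27, lay inside the range of the others, 4.56 to 7.90. Double-positive thymocyte markers were also low in the 4 tumors (mean 6.55 to 10.49, others 9.87 to 12.11) and neutrophil markers high (7.27 to 8.97, others 3.72 to 6.25), and the part of cell makeup in these levels was not tested. Without the 4, Exo1 was 0.32 above thymus (adjusted p = 0.155), and the same count of 5 members was called. The share of all genes called in that fit is not given here.

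**Figure D3:**
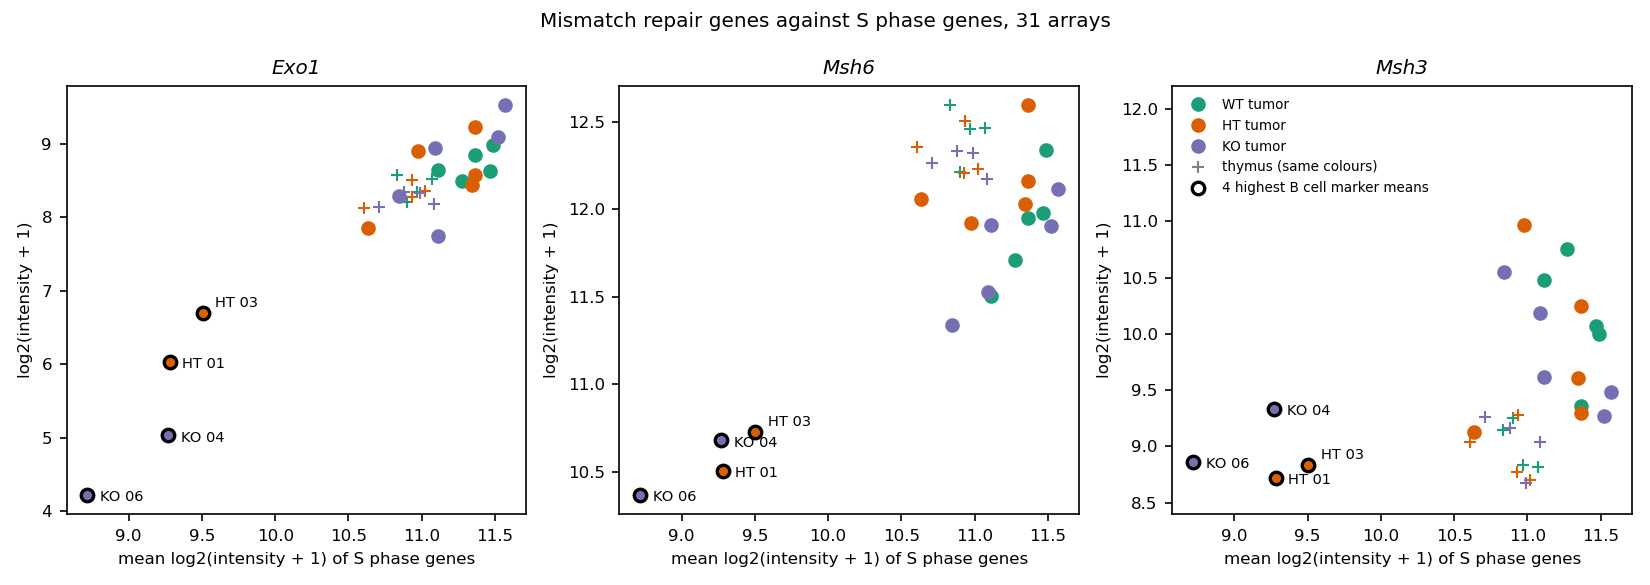
Level of Exo1, Msh6 and Msh3 against the mean level of 20 replication and S phase genes, both as log2(intensity + 1), in 31 arrays; circles are tumors, crosses thymi, and black rings mark the 4 tumors of highest B cell marker mean. The ringed tumors lie lowest for Exo1 and Msh6, and 17 of 19 tumors lie below every thymus for Msh6.

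Within the other 15 tumors Exo1 was higher where the S phase mean was higher (r = 0.65, adjusted p = 0.0447; rho = 0.63, adjusted p = 0.0600; permutation tests over 16 relations). Without the 2 tumors of most extreme S phase mean r was 0.45. For Msh6 the relation did not pass (r = 0.46, adjusted p = 0.226; rho = 0.51, adjusted p = 0.174). For Mgmt, Alkbh2, Alkbh3, Mpg, Msh3 and Pms2 r lay between -0.24 and 0.09. Without the 2 extreme tumors it was -0.60 for Msh3 and -0.56 for Alkbh3, so these values rest on which tumors are included.

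The 3'/5' ratio was set against each member in the same 15 tumors. Mgmt was lower where the ratio was higher (r = -0.67, adjusted p = 0.0352; rho = -0.70, adjusted p = 0.0306; r = -0.60 without the 2 extreme tumors). Pms2 gave r = 0.59 (adjusted p = 0.0648), rho = 0.71 (adjusted p = 0.0306) and r = 0.74 without 2 tumors. Alkbh3 gave r = 0.61 (adjusted p = 0.0900), which was -0.10 without HT tumor 07 and KO tumor 07 and so rested on them. Mpg, Alkbh2, Msh6 and Exo1 had r between -0.19 and 0.29. Without the 2 extreme tumors it was 0.60 for Alkbh2 (0.29 with them) and -0.38 for Mpg (0.19 with them). The sign of r differed between genotypes for each of them (n = 5 each, in the order HT, KO and WT tumors). Values were -0.15, -0.98 and 0.36 for Msh6, and -0.19, 0.70 and 0.69 for Alkbh2. For Mpg they were 0.13, 0.43 and -0.25, and for Exo1 0.27, -0.36 and 0.40.

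Between members, Msh6 and Exo1 had r = 0.85 over all 19 tumors and 0.18 over the 15. Msh6 and Msh3 had r = 0.43 over the 19 and -0.37 over the 15. Msh3 with Mgmt gave r = -0.22 and -0.56, and with Alkbh3 0.62 and 0.58. All share the same arrays and their RNA quality, so these are descriptions.

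For each member the genes of most similar level over the 19 tumors were listed, by Pearson r over all genes tested. Exo1 ran with Kntc1, Nudt1 and Cdc6 (0.97 each), and Msh6 with Rrm2 (0.93), Atad5 (0.92) and Aldh7a1 (0.91). Cdc6 loads the replicative helicase, RRM2 is a subunit of ribonucleotide reductase and NUDT1 hydrolyses oxidized purine nucleotides. Functions of Kntc1, Atad5 and Aldh7a1 are not given here, and the neighbours were not sorted by function. Over the 15 tumors the r values were 0.68, 0.73 and 0.73 for Exo1 and 0.63, 0.48 and 0.53 for Msh6. They were lower than with the 4 tumors of high B cell marker mean. Over the 12 thymi they were 0.57, -0.30 and 0.57, and -0.17, -0.06 and 0.14.

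The other members had other genes as their neighbours. Mgmt ran with Zfp91 (0.88), Fbxo45 (0.87) and Gria2 (0.85), with r of 0.90, 0.88 and 0.86 over the 15 tumors. Msh3 ran with BC025920, 1700056E22Rik and Rusf1 (0.91 each; 0.87, 0.91 and 0.86 over 15), none of them with a positive r over thymi. Alkbh2 ran with Ubtf (0.84), Klhdc4 (0.83) and Oxa1l (0.82), Alkbh3 with Ang4 (0.84), Eln (0.83) and Ephx3 (0.81), Pms2 with Pknox1 (0.87), Bag1 (0.83) and Uri1 (0.83), and Mpg with Sema7a, 2410004I01Rik and Dhx9 (0.73 each). For all 8 members the points share arrays, normalization and RNA quality, and no p is given.

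In thymus, Msh3 and Mgmt were higher in males. That was 2 of 8 members, near the 25.9% of all genes called between the sexes (15.2% higher in males). The Msh3 call holds at its brightest probe set and was lost as the mean of its probe sets (0.03, adjusted p = 0.778). Msh3 was 9.19 ± 0.0939 in 6 males and 8.81 ± 0.128 in 6 females (difference 0.38, SE 0.0727, adjusted p = 0.00342). Mgmt was 4.46 ± 0.245 and 4.05 ± 0.133 (difference 0.41, SE 0.105, adjusted p = 0.0159), and KO male M_02, at 3.97, lay within the female range.

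Values of other genes moved with sex in the same arrays. Thymic epithelium markers averaged 6.81 to 8.30 in female and 5.28 to 5.83 in male thymi, macrophage markers 7.16 to 7.89 and 5.56 to 6.63, and fibroblast markers 4.45 to 5.53 and 3.97 to 4.15. Their part in the Msh3 and Mgmt differences was not tested. Of the 7 direct reversal genes at their brightest probe sets, Mgmt, Alkbh1 (0.41, adjusted p = 0.00882) and Ascc3 (0.60, adjusted p = 0.00098) were higher in males and none was lower. That was a count of 3 of 7 beside the 15.2% of all genes that were higher. Alkbh3, one of the 7, was lower in males at another probe set, 1444184_at. Without the members, the direct reversal list averaged 8.65 in female and 8.87 in male thymi. Base excision repair averaged 8.91 and 8.88, and mismatch repair 10.81 and 10.80.

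The probe sets of a gene did not always run together. In tumors against thymus, with each of 32601 probe sets as its own feature, 21.6% were called. Mpg was called at its brightest probe set and at 1417572_at (0.63, SE 0.181, adjusted p = 0.0148) but was -0.10 at 1442302_at. Msh3 was called at its brightest and at 1430643_at (0.88, SE 0.281, adjusted p = 0.0265), and 1422261_a_at (0.38) and 1446511_at (0.35) did not pass. In this fit Msh6 had an adjusted p of 0.0532. The 3 probe sets of Pms2 gave 0.19, 0.18 and 0.13, and those of Exo1 -0.13, 0.03 and 0.30, none of which passed.

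Between the sexes the split was wider, with 26.1% of probe sets called. Mpg 1442302_at was lower in males by a difference of -1.05 (SE 0.148, adjusted p = 0.000862), while the brightest Mpg probe set gave -0.09. Alkbh3 1444184_at gave -0.78 (SE 0.141, adjusted p = 0.00293) and the brightest -0.12. At both of these probe sets no male thymus overlapped a female one, as at the brightest probe set of 12.7% of all genes. Msh3 1446511_at gave -0.55 (adjusted p = 0.114), opposite in sign to the brightest. The sources used here do not say which transcripts these probe sets read.

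**Figure D4:**
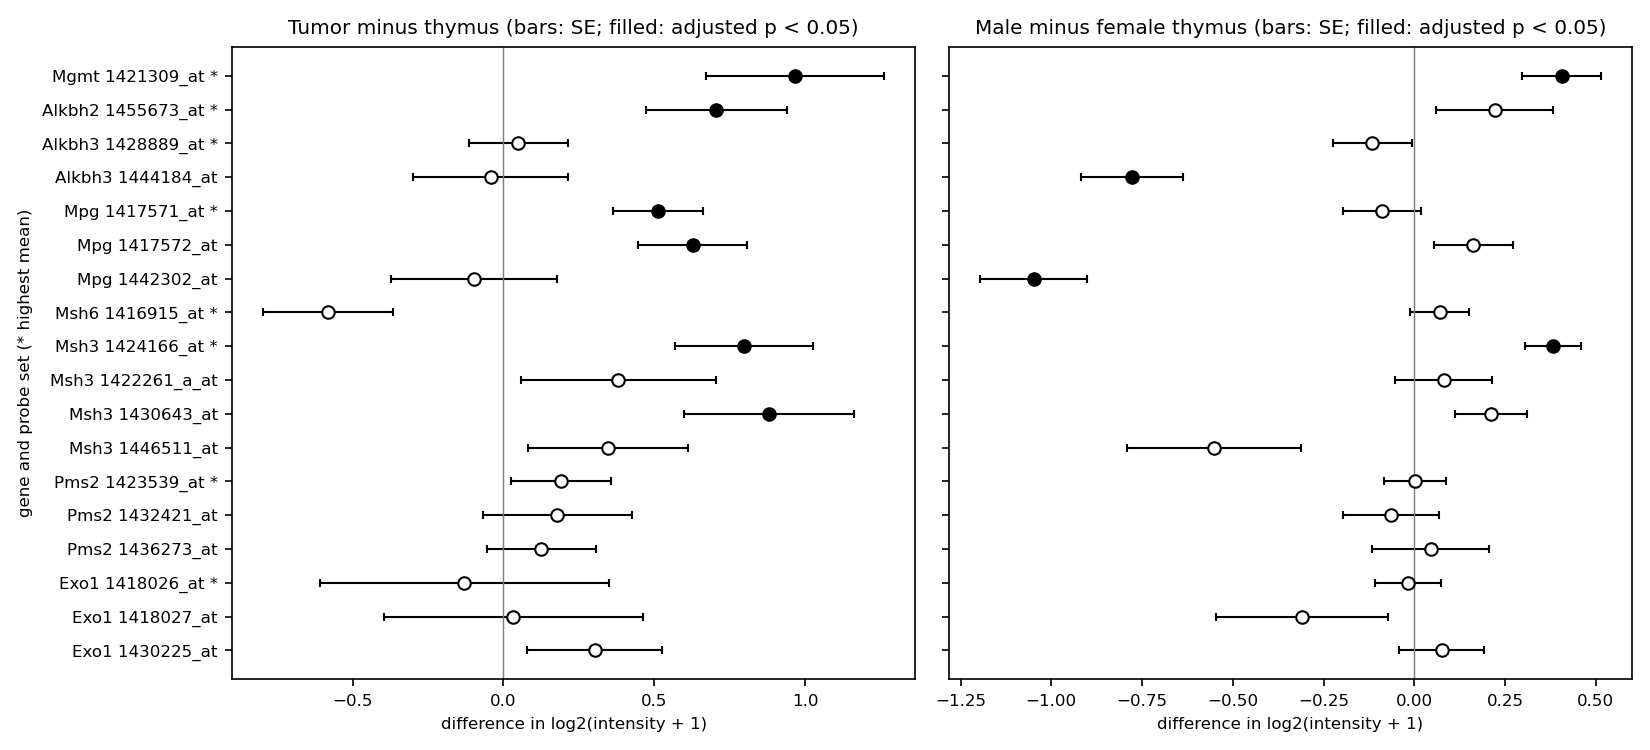
Difference in log2(intensity + 1) for the 18 probe sets of the 8 genes, tumor minus thymus at left and male minus female thymus at right; bars are SE, filled points have an adjusted p under 0.05, and an asterisk marks the probe set of highest mean. At right Mpg 1442302_at, Alkbh3 1444184_at and Msh3 1446511_at lie at -1.05, -0.78 and -0.55, away from the other probe sets of those genes.

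Other genes of the same pathways were read from lists that hold the members too. Over all genes tested 11.6% rose and 12.6% fell in the fit with all arrays and no 3'/5' ratio. That share stands beside each count below from the same fit. It does not stand beside counts with the 3'/5' ratio, in female arrays or without the tumors of highest B cell marker mean. The share of all genes called in those fits is not given here. No list was tested as a whole. Of 7 direct reversal genes 3 rose and 0 fell in tumors (median 0.34), the third beside Mgmt and Alkbh2 being Ascc2, a partner of the helicase that serves ALKBH3 (1.21, adjusted p = 0.0185). Of 19 base excision repair genes 5 rose and 1 fell (median 0.37). Parp1, the strand break sensor, rose by 0.75 (adjusted p = 0.000325), Apex1, the abasic site endonuclease, by 0.85 (adjusted p = 0.00536), Ung, the uracil glycosylase, by 1.12 (adjusted p = 0.00628) and Nthl1, which removes oxidized pyrimidines, by 0.74 (adjusted p = 0.0267). With the 3'/5' ratio in the fit Parp1, Apex1 and Ung kept an adjusted p under 0.05 (0.000854, 0.0258 and 0.0353), and Ascc2 (0.118) and Nthl1 (0.0741) did not. In female arrays alone Parp1 kept it (0.00933), while Ascc2 (0.101), Apex1 (0.105), Ung (0.123) and Nthl1 (0.129) did not.

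Of 19 mismatch repair genes, the sliding clamp, its loader and the resynthesis factors included, 7 rose and 3 fell (median 0.09). Besides Msh3 and Msh6, the smallest p values were those of Rfc1, a clamp loader subunit (0.44, adjusted p = 0.00335), Pcna, the clamp (-0.97, adjusted p = 0.0102), Rpa3, a single-strand binding subunit (-1.17, adjusted p = 0.0170), and Pold1, the catalytic subunit of polymerase delta (0.89, adjusted p = 0.0206). With the 3'/5' ratio in the fit, Rfc1 (0.0166) and Pcna (0.0378) passed, and Rpa3 (0.107) and Pold1 (0.146) did not. In female arrays alone Pcna passed (0.0345), and Rfc1 (0.0559), Rpa3 (0.0725) and Pold1 (0.143) did not.

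Of 16 nucleotide excision repair genes 2 rose and 2 fell (median -0.18): Gtf2h4 (-1.30, adjusted p = 0.000514), Ercc5 (0.95, adjusted p = 0.0287), Ercc2 (1.01, adjusted p = 0.0292) and Ercc4 (-0.45, adjusted p = 0.0393). Of 11 translesion synthesis genes 2 rose and 1 fell (median 0.03): Ube2b (-0.82, adjusted p = 0.00899), Rad18 (0.89, adjusted p = 0.0143) and Poli (0.96, adjusted p = 0.0203). Rad18 and Ube2b together place ubiquitin on the clamp. Of 20 S phase genes 0 were called in limma (median -0.13), and of 14 mitosis genes Ccnb2 fell (-1.33, adjusted p = 0.0119; median -0.66). With the 3'/5' ratio in the fit Gtf2h4 (0.000939), Ercc4 (0.0350) and Rad18 (0.0319) kept an adjusted p under 0.05, and Ercc5 (0.204), Ercc2 (0.148), Ube2b (0.0563), Poli (0.140) and Ccnb2 (0.0860) did not. In female arrays alone Gtf2h4 (0.0113) and Ube2b (0.0418) kept it, and Ercc5 (0.114), Ercc2 (0.0619), Ercc4 (0.123), Rad18 (0.173), Poli (0.0695) and Ccnb2 (0.0613) did not. Without the 4 tumors of highest B cell marker mean, 7 S phase genes rose and 1 fell. Counts of these lists with the 3'/5' ratio in the fit were 1 up and 0 down for direct reversal, 4 and 2 for base excision repair, 2 and 2 for mismatch repair, 0 and 3 for nucleotide excision repair, and 2 and 1 for translesion synthesis, where Mad2l2 (0.43) and Rev3l (-0.39) then passed in place of Poli and Ube2b. In female arrays they were 0 and 0, 1 and 0, 1 and 1, 0 and 1, and 0 and 1 in the same order, and without the 4 tumors of highest B cell marker mean 4 and 1, 10 and 2, 8 and 4, 2 and 2, and 2 and 1. In untreated thymus, KO against WT, none of the genes of these lists passed, and the list medians lay between -0.05 and -0.01.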

How the data were processed

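The authors deposited 1 table of normalized intensities, for 45101 probe sets (1 without a value) on 31 arrays, made with GCRMA (version not given in the sources used here) per the submitters' processing notes. GCRMA corrects background and normalizes probe intensities; every deposited array had a median intensity of 20.0, so a shift of all RNA could not be seen. Per the labels' protocols, RNA was extracted with Trizol and RNeasy, and the labelling manual named is one for whole-transcript assays, whereas these arrays read 3' ends.

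Values were taken as log2(intensity + 1). Gene names came from the platform annotation, in which 34958 probe sets named 1 gene, and 99.4% of their gene identifiers matched RefSeq (GRCm38.p6). The probe set of highest mean stood for each gene, and genes above the 25th percentile (3.61) were kept. Fits used limma 3.58.1 in R 4.3.3 (lmFit, eBayes, Benjamini-Hochberg over all genes tested) and held a sex term: 12 thymi, 19 tumors, and all 31 arrays for tumor against thymus. Relations across tumors were tested by 2-sided permutation. The fits were tested on simulated data.

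All 8 members were named in every comparison, with Stk38, up to 4 other genes per pathway list of smallest p in tumor against thymus, and 3 neighbours per member. Members and lists were chosen with earlier results of these data known. Alternatives were a pseudocount of 16, other filters, other uses of probe sets, quantile normalization, array weights, no sex term, the 3'/5' ratio as a covariate, female arrays alone, a replicate block, each array left out, and the 4 tumors of highest B cell marker mean left out. Same-numbered arrays did not deviate together, so the number was not taken as a pairing.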

Additional observations from a re-analysis of the deposited data

Results flagged for a closer look

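Within KO thymus, the male M_01 had an Mgmt level of 4.58, far above the next of the 4 arrays, 4.06, so that the gap took 0.860 of the group's range. Both values lie inside the range of all thymi, 3.85 to 4.65. This was 1 of 48 combinations of gene and group examined, where chance alone sets apart about 1 in 20 groups.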

How the results depend on the processing

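Apart from the replicate block, the share of all genes called under each alternative is not given here beside the counts of members. Members called in tumor against thymus (5 over the genotypes) were 1 with the 3'/5' ratio as covariate, 1 in female arrays alone, and from 2 to 5 without 1 array. The low was without HT tumor 04, and 3 were called without WT thymus F_01, HT thymus F_01, HT thymus F_02 or KO thymus F_02. Within WT (0) they were 1 with the mean of probe sets, 3 with array weights, 1 without the sex term, 1 with the 3'/5' ratio, 2 without the 4 tumors of highest B cell marker mean, and 0 to 1 without 1 array. Within HT (0) they were 1 with array weights and 1 without the 4 tumors. Within KO (1) they were 0 with a pseudocount of 16, without a filter, with every probe set, with the 3'/5' ratio or in female arrays, 3 with array weights, and 0 to 1 without 1 array. Between the sexes (2) they were 1 with a filter at the median level, which left Mgmt untested. With the mean of probe sets Msh3 was lost, and Alkbh3 (-0.45) and Mpg (-0.32) passed as lower in males. No call changed direction in any alternative run. With a replicate block 0 members were called in each genotype comparison, and over all genes 23, 3 and 8 in thymus (26, 3 and 8 without the block) and 1, 0 and 0 in tumors (0, 0 and 0). Same-numbered thymi had correlations of deviations from -0.214 to 0.124, and tumors from -0.566 to 0.565. Levels of Mgmt lie near the median of the arrays, where the pseudocount shrinks differences.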
